A study of Mus musculus with 4 samples.

Results

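Genes of DNA replication and of the S phase of the cell cycle were followed in cultured mouse mesangial cells, the contractile cells that hold together the capillary loops of the kidney glomerulus. The set was chosen by name: 50 genes for origin recognition and firing, helicase, polymerases, clamp and clamp loader, strand joining, deoxynucleotide supply, G1/S control and chromatin assembly. Of these, 49 had a probe set with a single gene symbol and all 49 passed the filter on low values, out of 13565 genes tested. Chaf1a, a subunit of the CAF-1 histone chaperone, is not analysed here. Total RNA of mesangial cells was measured on 4 oligonucleotide arrays, 2 labelled low glucose and 2 labelled TGFBeta. The latter are given here as TGF-beta1, although their titles name no isoform of this cytokine. The sources used here give no glucose concentration, dose, time, strain or animal age, and do not say in which glucose level the TGF-beta1 cells were kept. Glucose and TGF-beta1 thus cannot be told apart as the origin of a difference. Separate cultures for the arrays of a group are not stated either, and p-values cover only the spread among these arrays, which may be technical.

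A cell copies its DNA once per division in ordered steps. In G1 the origin recognition complex, with Cdc6 and Cdt1, loads the MCM helicase onto origins. At the start of S phase kinases switch the helicase on, and primase, polymerases, the sliding clamp PCNA and the single-strand binding protein RPA then build the fork. Many of these genes are targets of E2F transcription factors, which the retinoblastoma protein family holds back until cyclin-dependent kinases phosphorylate it. TGF-beta is known as an inhibitor of the G1/S transition in many epithelial cells, while its effect on the division of mesangial cells depends on the culture.

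Values were deposited as linear intensities and are given as log2(intensity + 46.9) after quantile normalisation. Each difference is the mean of the TGF-beta1 arrays minus that of the low glucose arrays on this scale, which understates the change of dim genes. The arrays fell into 2 pairs, each with 1 array of either group, made from spike-in transcripts that hold no RNA of the cells: low glucose replicate 1 with TGF-beta1 replicate 2 (array pair 1), and low glucose replicate 2 with TGF-beta1 replicate 1 (array pair 2). Across genes the arrays correlated at r = 0.988 and 0.990 within the pairs and at 0.955 within each group. Array medians ran from 78.2 to 99.6, and the 3'/5' signal ratio, a sign of RNA integrity, from 0.948 to 1.003 for Gapdh and from 1.18 to 1.51 for beta-actin. All 8 tested TGF-beta response genes passed (limma with the array pair as a block, adjusted p under 0.05), where 18.5% of all genes did. Of the 8, 5 were higher and 3 lower, from Pmepa1, a TGF-beta-induced feedback inhibitor, at 1.29 to Id3 at -0.99. Without the block limma called 0 of the 8. As this list was also chosen with earlier results of these data known, it is no independent check of the labels. Of 10 mesangial markers 7 passed the filter, with Gata3 and Thy1 below it, and Pdgfrb (7.10 to 7.24 over the arrays) and Itga8 (6.73 to 7.03) near its limit of 6.85. The tubule markers passed in 8 of 11 cases (Cdh16 at 10.56 to 10.98, Krt18 at 11.34 to 12.08), and so did 5 of 6 macrophage, 3 of 5 podocyte and 2 of 6 endothelial markers. Mean levels of the tested markers ran from 6.85 to 12.35 in the mesangial list and from 7.06 to 11.69 in the tubule list. Of all 18194 genes with a probe set of a single symbol, 13565 passed the filter. Summed intensities of the tubule markers were 6374 and 6374 in low glucose, against 6779 to 7457 in TGF-beta1, those of the mesangial markers 4992 to 5602 and 6076 to 6718, and those of the macrophage markers 2056 to 2131 and 1735 to 1781 in the same order. The markers that rose were mesangial Acta2 (0.32) and Vim (0.29), tubular Krt18 (0.54) and Krt8 (0.40), and podocyte Podxl (0.23). Those that fell were tubular Cdh16 (-0.31) and Lrp2 (-0.29), podocyte Synpo (-0.58) and the macrophage receptor Csf1r (-0.38). The podocyte markers summed to 551 to 655 and 530 to 697, and the endothelial ones to 186 to 195 and 190 to 192. The summed intensity of the 49 replication genes was 63566 to 64744 in low glucose and 60434 to 60715 in TGF-beta1. The part of other cell types in the results on replication genes was not tested.

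The replication genes differed little between TGF-beta1 and low glucose. With the array pair as a block in limma, 2 of 49 rose (Orc1 and Orc2), 3 fell (Pola1, Rpa3 and Ccne2) and 44 did not pass an adjusted p of 0.05. The called share was 10.2%, while 18.5% of all genes passed, 7.89% higher and 10.6% lower. "Rose" and "fell" are used in that sense throughout. Without the block, 0 of the 49 and 0% of all genes passed with limma, and at an unadjusted p under 0.05 the counts were 0 replication genes and 271 genes overall (2%). With the block, 1 residual degree of freedom is left and the fit gives every gene the spread of genes of its brightness. In an alternative, the prior degrees of freedom (2.79) were taken from the unblocked fit and the prior variance of the blocked fit was kept. Then 0 of the 49 and 0 of all 13565 genes passed. The unadjusted p was then under 0.05 in the same 5 genes and in 2242 genes overall. With arrays centred on their medians 8 passed, 2 higher and 6 lower, the additional genes being Lig1, Mcm7 and Rfc1. Under that setting 19.3% of all genes passed, of which 33.5% were higher, whereas 1070 of the 2503 called genes were higher with quantile normalisation.

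Small negative differences prevailed. Of the 49 genes, 38 lay below 0 (77.6%, against 50.1% of all genes tested), with a median of -0.06 against -0.00 for all genes. The median was -0.10 within array pair 1 and -0.05 within array pair 2, and 30 genes lay below 0 in both pairs, 5 above 0 in both. Of all 13565 genes, 4666 lay below 0 in both pairs and 4593 above 0 in both. Leaving out TGF-beta1 replicate 2 gave a median of -0.016, and leaving out TGF-beta1 replicate 1 gave -0.12. The absolute difference was under 0.25 in 46 of the 49 genes and in 89.7% of all genes. In the blocked fit the 95% intervals of the 49 genes together reached from -0.47 to 0.37, so each lay within 0.5 of 0. Of these intervals 38 held 0, as did 9534 of the 13565 over all genes. Without the block the intervals of the 49 genes reached from -1.22 to 1.37. The groups did not overlap in 9 genes, 8 lower and 1 higher in TGF-beta1 (18.4%, where 20.9% of all genes did not overlap, 11.1% lower and 9.83% higher).

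**Figure D1:**
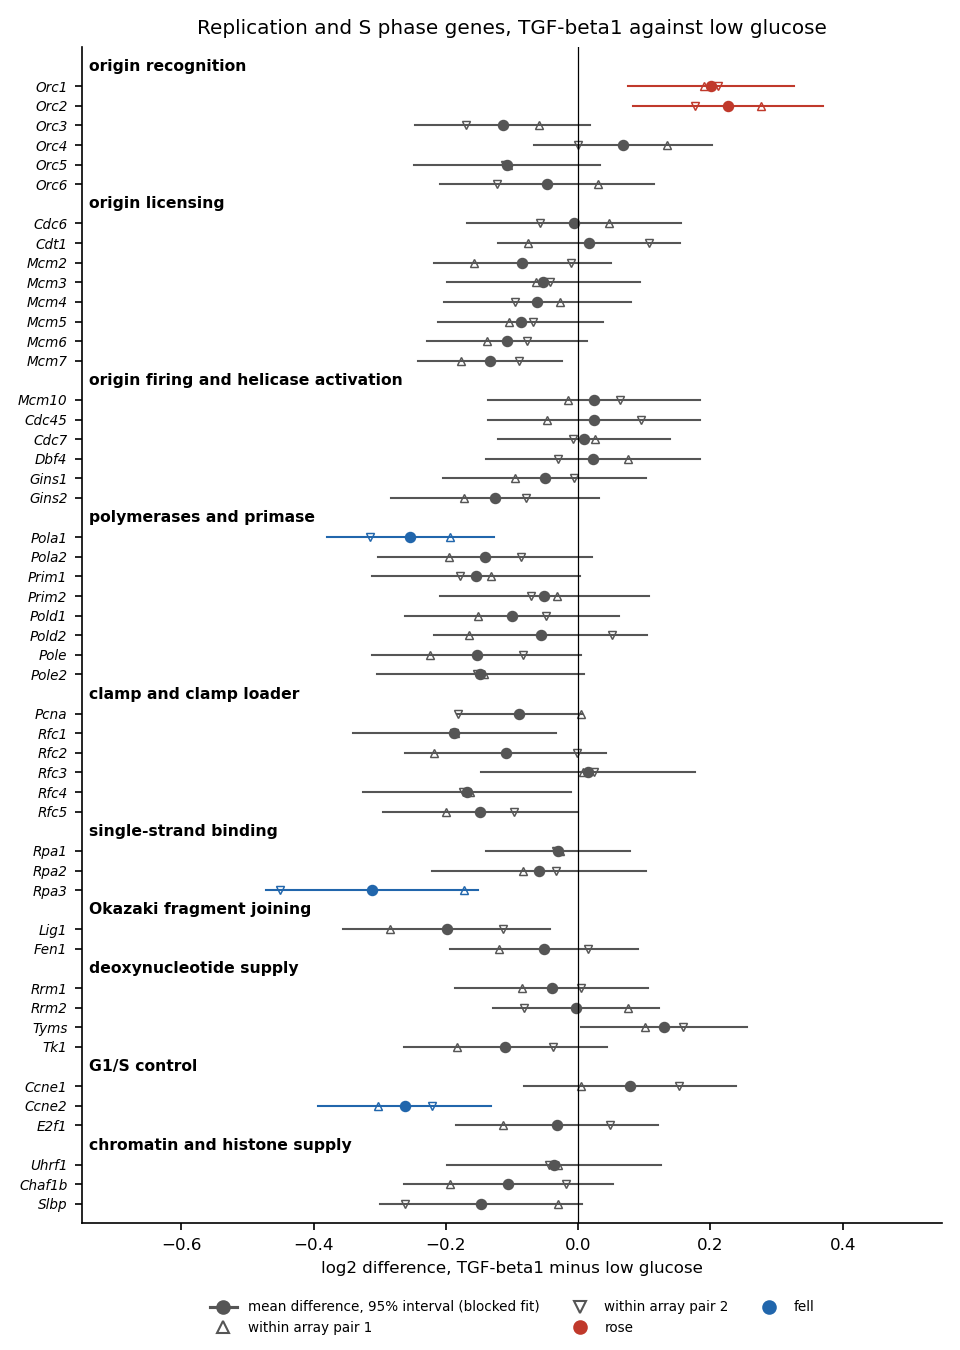
Log2 differences (x axis, TGF-beta1 minus low glucose) of the 49 replication genes, grouped by role; dots are means of 2 arrays per group, bars 95% intervals of the blocked limma fit, and open triangles the differences within array pair 1 (up) and array pair 2 (down). Most dots lie between -0.20 and 0.10, and the 5 called genes are in red (rose) and blue (fell).

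Among the 6 subunits of the origin recognition complex, which marks the sites where replication can start, Orc1 and Orc2 rose, and the other 4 did not pass. Orc1, the largest subunit, an ATPase, was at 7.61 and 7.86 in low glucose replicates 1 and 2 and at 8.08 and 7.80 in TGF-beta1 replicates 1 and 2. TGF-beta1 replicate 1 lay above both low glucose arrays and TGF-beta1 replicate 2 between them, so that the groups overlapped, but each TGF-beta1 array was above the low glucose array of its own pair. The rise was 0.20 ± 0.064 (standard error; n = 2 arrays per group; 1.15-fold; 0.19 in array pair 1 and 0.21 in array pair 2; adjusted p = 0.0136 with limma and the block). Orc2 was at 8.58 and 8.46 in low glucose and at 8.64 and 8.86 in TGF-beta1, both above the low glucose arrays. Its rise was 0.23 ± 0.073 (1.17-fold; adjusted p = 0.0151 with limma and the block; 0.28 and 0.18 within the pairs). A second kept probe set of Orc1 gave 0.12, whereas the others of Orc2 gave -0.0051 and 0.04, and Orc2 did not pass when the kept probe sets of each gene were averaged. Leaving out 1 array, which unbalances the pairs, put Orc1 at 0.07 or 0.33 (low glucose replicate 1 or 2 left out) and at 0.06 or 0.34 (TGF-beta1 replicate 1 or 2), and Orc2 at 0.12 with TGF-beta1 replicate 2 left out. The remaining subunits were between -0.11 (Orc3) and 0.07 (Orc4). Orc4 was at -0.23 on each of its other 2 kept probe sets. It passed as lower in the blocked fit when probe sets of the suffixes _s, _x and _a were left out.

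The licensing factors and the MCM helicase were close to 0. Of 8 genes 0 rose and 0 fell, 7 lay below 0, and the range was -0.13 to 0.02 with a median of -0.07. Mcm7 was the lowest, at 12.24 and 11.89 in low glucose and at 11.80 and 12.07 in TGF-beta1. The groups overlapped, and the difference was -0.13 ± 0.056 (95% interval -0.24 to -0.02; adjusted p = 0.078 with limma and the block). Its 3 other kept probe sets gave -0.10, -0.08 and -0.07. The other subunits of the hexamer were at -0.08 (Mcm2), -0.05 (Mcm3), -0.06 (Mcm4), -0.09 (Mcm5) and -0.11 (Mcm6), so that all 6 subunits lay below 0 without passing the threshold. On the probe sets used, all 6 were below 0 within each pair as well. Another kept probe set lay above 0 within array pair 1 for Mcm3 (0.01), Mcm4 (0.05) and Mcm6 (0.03). Within array pair 2 this was so for Mcm3 (0.11 and 0.02), Mcm5 (0.06) and Mcm7 (0.02). Between the groups the kept probe sets of Mcm3 ranged from -0.07 to 0.04. Cdc6, the ATPase that recruits the helicase, was at -0.01 (interval -0.17 to 0.16) and Cdt1, its partner in loading, at 0.02 (-0.12 to 0.15).

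The genes that fire the loaded origins did not pass either (0 of 6; median 0.02). Gins2, a subunit of the GINS complex that completes the active helicase, had the largest difference, with 10.57 and 10.11 in low glucose, against 10.03 and 10.39 in TGF-beta1. These ranges overlap, and the difference was -0.13 ± 0.080 (interval -0.28 to 0.03). Its other probe set gave -0.14. Gins1 was at -0.05, and Mcm10, Cdc45, the kinase Cdc7 and its activator Dbf4 were between 0.01 and 0.02.

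**Figure D2:**
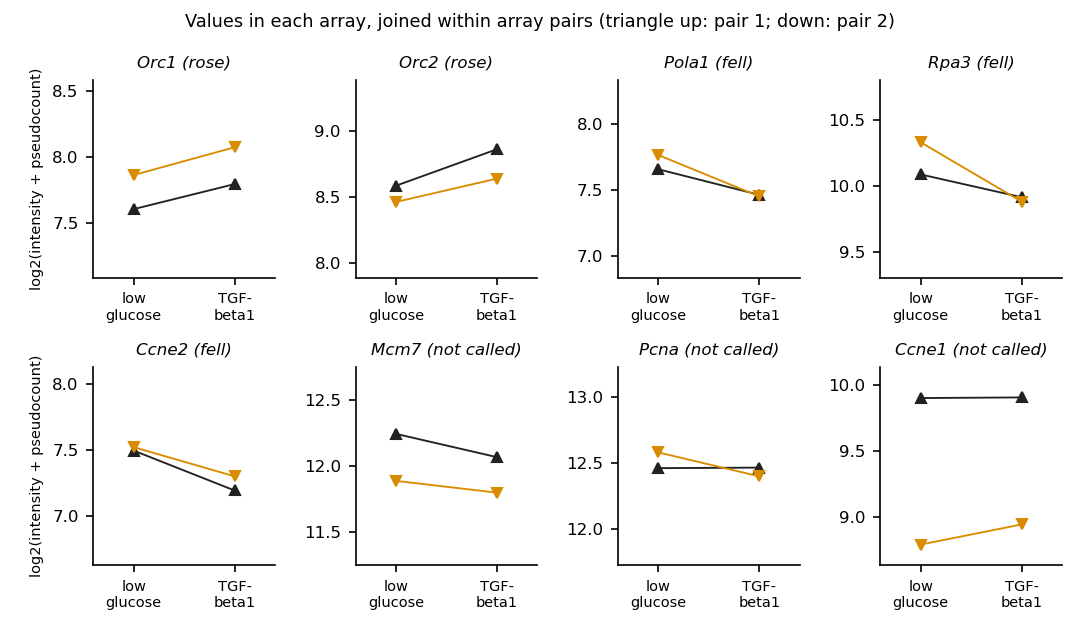
Values of 8 genes in each array (y axis, log2(intensity + 46.9) after quantile normalisation, each panel spanning 1.5 units), with lines joining the low glucose and TGF-beta1 arrays of array pair 1 (black, triangles up) and array pair 2 (orange, triangles down). The lines of Orc1 and Orc2 rise and those of Pola1, Rpa3 and Ccne2 fall in both pairs, while Ccne1 differs by 1.04 between the pairs and by 0.08 between the groups.

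All 8 polymerase and primase genes lay below 0, and 1 of them fell; their median was -0.14 (-0.16 in array pair 1, -0.08 in array pair 2). That was Pola1, the catalytic subunit of the polymerase that starts each new strand with primase. It was at 7.66 and 7.77 in low glucose and at 7.45 and 7.46 in TGF-beta1, with no overlap. The fall was -0.25 ± 0.065 (1.19-fold; adjusted p = 0.00108 with limma and the block; -0.19 and -0.31 within the pairs), and the only other probe set was below the filter. Pola2, its regulatory subunit, was at 9.73 and 9.58 against 9.50 and 9.54, also without overlap, a difference of -0.14 ± 0.083 that did not pass (adjusted p = 0.246 with limma and the block). Pole, the catalytic subunit of the leading-strand polymerase, was at 9.32 and 9.32 against 9.24 and 9.10. Its difference was -0.15 ± 0.081 (interval -0.31 to 0.00). Pole2, the second subunit of that enzyme, was at 9.02 and 9.35 against 9.20 and 8.88, an overlap, and differed by -0.15 ± 0.080. Prim1, the catalytic primase subunit, was at 10.15 and 10.59 against 10.41 and 10.02 and differed by -0.15 ± 0.080, with -0.20 on its other probe set. Prim2, Pold1 and Pold2 were at -0.05, -0.10 and -0.06.

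The clamp and its loader showed 5 of 6 genes below 0 and 0 called, with a median of -0.13. Pcna, the sliding clamp, was at 12.46 and 12.58 in low glucose and at 12.40 and 12.46 in TGF-beta1. Its difference was -0.09 ± 0.048 (interval -0.18 to 0.01), from 0.00 in array pair 1 and -0.18 in array pair 2. Rfc1, the large subunit of the clamp loader, was at 8.93 and 9.25 against 9.06 and 8.75. It differed by -0.19 ± 0.078 (-0.19 within each pair; adjusted p = 0.0783 with limma and the block), and its other kept probe sets gave -0.15 and -0.12. Among the small subunits Rfc4 was at 10.15 and 10.66 against 10.49 and 9.98, a difference of -0.17 ± 0.080 with -0.12 on its other probe set. Rfc5 was at 10.89 and 10.79 against 10.69 and 10.69, without overlap, a difference of -0.15 ± 0.075. Rfc2 was at -0.11 and Rfc3 at 0.02.

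The largest difference of the set was in the single-strand binding protein RPA, in its smallest subunit. Rpa3 was at 10.09 and 10.33 in low glucose and at 9.88 and 9.91 in TGF-beta1, with no overlap. It fell by 0.31 ± 0.082 (1.24-fold; adjusted p = 0.00169 with limma and the block), unequally in the pairs, at -0.17 and -0.45. The value was -0.19 without low glucose replicate 2. The partner subunits Rpa1 and Rpa2 were at -0.03 (interval -0.14 to 0.08) and -0.06 (-0.22 to 0.10). Of the 2 genes that join Okazaki fragments, the ligase Lig1 was at 10.60 and 10.22 against 10.11 and 10.31. The groups overlapped and the difference was -0.20 ± 0.080 (-0.28 in array pair 1, -0.11 in array pair 2; adjusted p = 0.064 with limma and the block). The flap nuclease Fen1 was at -0.05.

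Deoxynucleotide synthesis showed 0 of 4 genes called. Tyms, which makes thymidylate, was dim, at 7.70 and 7.40 in low glucose, against 7.56 and 7.80 in TGF-beta1. Its difference was 0.13 ± 0.064 (interval 0.00 to 0.26), but -0.16 on another kept probe set. Rrm1 and Rrm2, the subunits of ribonucleotide reductase, were at -0.04 and -0.00, and the thymidine kinase Tk1 at -0.11. Chromatin and histone genes (0 of 3 called) included Slbp, which binds the stem-loop of histone mRNA. It was at 10.38 and 10.79 against 10.53 and 10.35, a difference of -0.15 ± 0.078 that came mostly from array pair 2 (-0.03 and -0.26), and 0.05 on its other kept probe set. Uhrf1, which guides maintenance methylation to new DNA, was at -0.04 and Chaf1b at -0.11.

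Of the 3 regulators of S phase entry, cyclin E2 fell and cyclin E1 and E2f1 did not pass. Ccne2 was at 7.49 and 7.52 in low glucose and at 7.30 and 7.19 in TGF-beta1, without overlap. The fall was -0.26 ± 0.067 (1.20-fold; adjusted p = 0.00116 with limma and the block; -0.30 and -0.22 within the pairs). Ccne2 and Pola1 were dim, with intensities of 101 to 145 and 118 to 168, so their changes are understated. With a pseudocount of 16 they were -0.32 and -0.30. With the filter at the 60th percentile Ccne2 was not tested. Ccne1, the gene of cyclin E1, was at 9.90 and 8.79 in low glucose, against 8.94 and 9.91 in TGF-beta1, a difference of 0.08 ± 0.082. E2f1 was at -0.03 ± 0.078, and at -0.21 and -0.12 on its other kept probe sets. It passed as lower in the blocked fit when probe sets of the suffixes _s, _x and _a were left out.

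The array pairs differed more than the groups did. The absolute difference between the pairs had a median of 0.26 over the 49 genes, against 0.09 between the groups, and it was the larger of the values in 38 genes. Over all genes tested these medians were 0.24 and 0.09, and the pair difference was the larger in 10328 of 13565. With limma, 30 of the 49 passed an adjusted p of 0.05 for array pair (61.2%; 66.5% of all genes), 19 higher in pair 2 and 11 higher in pair 1. The difference between the pairs depended on the probe set. In 33 replication genes with at least 2 kept probe sets, the pair difference took both signs in 22 genes and its median range within a gene was 0.43. Between the groups the difference took both signs in 13 of the 33, with a median range of 0.07, and in 18 genes every kept probe set was lower in TGF-beta1. Leaving out 1 array moved many genes that did not pass. Without low glucose replicate 1 or 2, in that order, the differences were -0.43 and 0.09 for Rfc4, -0.38 and 0.07 for Prim1, -0.36 and 0.06 for Slbp, -0.31 and 0.017 for Pole2 and -0.35 and -0.03 for Rfc1. In the same order they were 0.10 and -0.35 for Gins2, 0.05 and -0.31 for Mcm7 and -0.012 and -0.39 for Lig1. Tyms was at 0.28 and -0.020. The direction of these differences, other than those of Rfc1 and Lig1, changed with the array left out. The direction of the 5 called genes, which were picked by these same arrays, did not. Among genes that did not pass, Pole (-0.23 to -0.08), Rfc5 (-0.20 to -0.10) and Pola2 (-0.21 to -0.07) kept theirs as well.

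**Figure D3:**
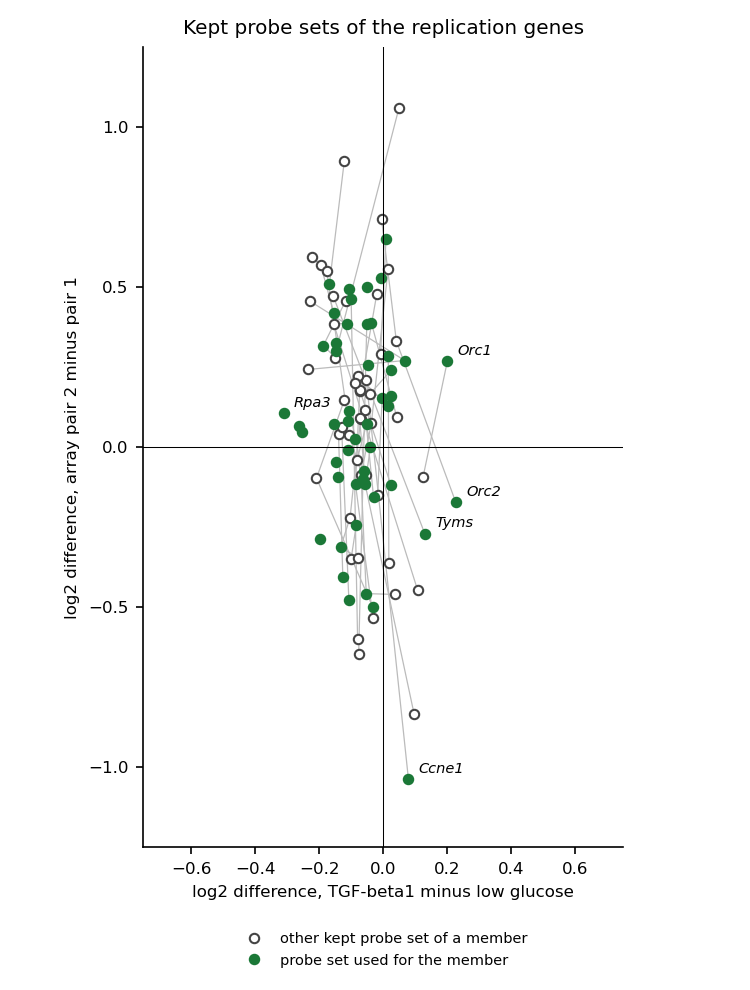
Each point is a kept probe set of a replication gene (96 in all), with the log2 difference between the groups on the x axis and that between the array pairs on the y axis; filled points are the probe sets used, and lines join probe sets of the same gene. The points spread from -1.04 to 1.06 along the y axis and from -0.31 to 0.23 along the x axis.

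Promoters are shown for the genes that rose or fell, since these are the members that moved and E2F is the factor family best known for this set. RefSeq promoter windows (GRCm38.p6, 250 bases before to 50 after the start of the gene; the first window listed for each gene) matched 43 of the 50 genes, Ccne2 not among them. The E2F-type motif searched was TTTNNCGC, on either strand. It occurred in 14 of the 43 windows (32.6%), against 8.01% of 10908 tested genes with a window. With G or C at the 2 open positions the shares were 27.9% and 3.85%. The following 4 stretches run from 200 bases before to 30 after the start, 5' to 3', with matches of the E2F-type motif in capitals. They lie at chrX:93632126-93632355 on the minus strand (Pola1), chr6:8259112-8259341 on the minus strand (Rpa3), chr4:108579254-108579483 on the plus strand (Orc1) and chr1:58505080-58505309 on the minus strand (Orc2).
Pola1: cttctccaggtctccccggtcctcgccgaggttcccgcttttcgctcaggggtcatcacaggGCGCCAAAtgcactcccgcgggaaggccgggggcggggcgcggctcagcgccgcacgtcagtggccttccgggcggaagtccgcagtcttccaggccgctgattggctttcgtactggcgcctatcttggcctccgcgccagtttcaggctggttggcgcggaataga
Rpa3: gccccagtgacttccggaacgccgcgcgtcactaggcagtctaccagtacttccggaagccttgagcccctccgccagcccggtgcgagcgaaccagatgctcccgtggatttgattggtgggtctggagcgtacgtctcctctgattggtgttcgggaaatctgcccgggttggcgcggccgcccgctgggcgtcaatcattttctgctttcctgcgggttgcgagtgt
Orc1: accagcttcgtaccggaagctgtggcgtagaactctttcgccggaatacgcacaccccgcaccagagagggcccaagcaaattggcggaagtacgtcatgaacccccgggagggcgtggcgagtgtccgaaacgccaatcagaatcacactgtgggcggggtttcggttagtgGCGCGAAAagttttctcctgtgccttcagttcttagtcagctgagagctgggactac
Orc2: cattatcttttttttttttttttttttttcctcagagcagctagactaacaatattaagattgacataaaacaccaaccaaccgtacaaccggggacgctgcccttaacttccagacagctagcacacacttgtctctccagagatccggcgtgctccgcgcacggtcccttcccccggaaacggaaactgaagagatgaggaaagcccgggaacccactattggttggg

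Pola1, which fell, and Orc1, which rose, each had 1 E2F-type match, at positions -138 to -131 and -27 to -20 from the start, both on the opposite strand. In the windows of Rpa3 and Orc2 these letters did not occur. Among the genes that did not pass, 12 of 38 had a match (31.6%), among them Mcm3, Mcm5, Mcm6, Mcm7, Cdc6 and Cdt1. The CCAAT motif, bound by NF-Y, was in 24 of the 43 windows (55.8%; 38.1% of tested genes) and in all 4 of the windows shown. The CHR motif TTTGAA, known from genes of G2 and mitosis, was in 5 (11.6%; 11.8%), and the GC box GGGCGG in 33 (76.7%; 61.2%). All were searched on either strand, and matches of different motifs were counted independently of any overlap. A match is a description of the sequence only.

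Differences in other genes of replication were likewise small. Of 28 tested genes of the machinery outside it, 1 rose and 5 fell, a called share of 21.4% next to 18.5% of all genes. Below 0 lay 21 (75%, against 50.1% of all genes), and the median was -0.07 (-0.11 in array pair 1, -0.06 in array pair 2). Atad5, which takes PCNA off DNA, fell by 0.36 ± 0.064 (-0.04 on another probe set), Pold4, a small subunit of polymerase delta, by 0.25 ± 0.070 and Timeless, a fork protection factor, by 0.24 ± 0.082. Ticrr, which helps load Cdc45, rose by 0.25 ± 0.064, with -0.029 on another probe set. These values varied with the arrays used: Pold4 was at -0.42 and -0.08 without low glucose replicates 1 and 2 and at -0.53 and 0.019 when TGF-beta1 replicates 1 and 2 were left out, and Ticrr at 0.46, 0.03, 0.47 and 0.03 in the same order. Timeless was at -0.12 with low glucose replicate 1 left out and at -0.13 with TGF-beta1 replicate 1 left out. Of 18 checkpoint and repair genes, 0 rose and 2 fell (11.1%, below the 18.5% of all genes), with a median of -0.09. They were Chek1, the kinase of the S phase checkpoint, at -0.32 ± 0.064 (-0.28 on another probe set) and Brca2, at -0.18 ± 0.066, which did not pass without normalisation between arrays (adjusted p = 0.0631 with limma and the block). Without 1 array, in the same order, Chek1 was at -0.56, -0.08, -0.54 and -0.10 and Brca2 at -0.33, -0.04, -0.29 and -0.07. Neither the 16 other genes of nucleotide supply (median 0.03) nor the 12 of chromatin replication (median -0.06) held a called gene. Dnmt1, the maintenance methyltransferase, was at -0.05 ± 0.082. Without the block, limma called 0 genes of any of these lists.

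The regulators upstream of S phase changed in both directions. Of 31 tested, 5 rose and 5 fell (32.3%, against 18.5% of all genes), with a median of -0.04 (0.02 in array pair 1, -0.09 in array pair 2). Without the block limma called 0 of them, while the unadjusted p was under 0.05 in 3. Myc, a growth factor-induced transcription factor, was at 8.72 and 8.99 in low glucose, against 9.72 and 9.50 in TGF-beta1, a rise of 0.75 ± 0.081 (1.69-fold). Cdkn1a, an inhibitor of cyclin-dependent kinases, was at 9.07 and 9.15 against 9.84 and 9.86, a rise of 0.74 ± 0.082 (1.67-fold), with 0.65 on its other probe set. Cdkn2b, an inhibitor of Cdk4 and Cdk6 that TGF-beta is known to induce in epithelial cells, was at 9.01 and 9.06 against 9.48 and 9.46, a rise of 0.44 ± 0.081 (1.35-fold). In each of these 3 genes the groups did not overlap. Over the 31 tested regulators this was so in 5 genes higher and 5 lower in TGF-beta1 (32.3%, against 20.9% of all genes). Ccnd1, cyclin D1, rose by 0.31 ± 0.081, with 0.30 and 0.21 on its other probe sets, and Cdk6 rose as well. Rbl2, a pocket protein that represses E2F targets in resting cells, fell by 0.35 ± 0.068, as did Rbl1, E2f8, Cdkn2c and Cdkn2d. Rbl2 was at -0.69 and -0.01 without low glucose replicates 1 and 2 and at -0.68 and -0.01 without TGF-beta1 replicates 1 and 2. Cdkn1b was at -0.15 ± 0.080 and did not pass.

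Genes of G2 and mitosis, the phases after replication, were also mostly lower. Of 43 tested, 0 rose and 8 fell, a called share of 18.6% next to 18.5% of all genes (10.6% lower). Below 0 lay 36 (83.7%, against 50.1% of all genes), and the median was -0.11 (-0.09 and -0.12 within the pairs), next to -0.06 for the replication genes; the difference between these lists was not tested. Kif11, a spindle motor, fell by 0.38 ± 0.067, Nusap1 by 0.37 ± 0.074, Mki67, the proliferation marker, by 0.36 ± 0.076 and Smc4, a condensin subunit, by 0.31 ± 0.078. The groups did not overlap in these 4 genes. Over the whole list of 43 this was so in 16 genes lower and 1 higher in TGF-beta1 (39.5%). Of all genes 20.9% did not overlap, 11.1% lower and 9.83% higher. In bulk RNA, fewer cells in a phase and less RNA per cell cannot be told apart.

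**Figure D4:**
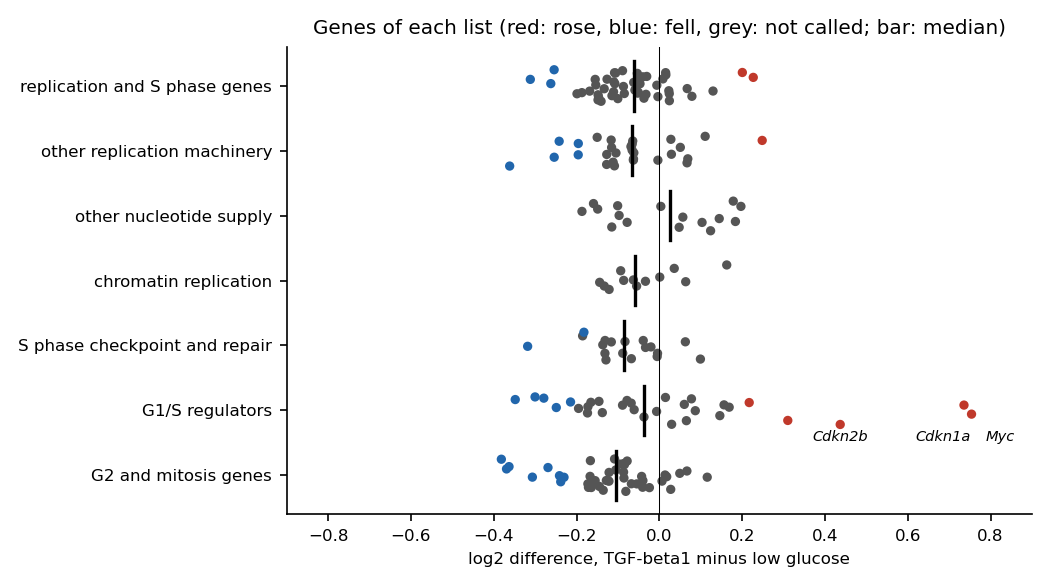
Log2 differences (x axis, TGF-beta1 minus low glucose) of the tested genes of each list; points are genes, jittered vertically, in red (rose), blue (fell) or grey (not called), and black bars are medians. The G1/S regulators spread from -0.35 to 0.75, and the replication and S phase genes from -0.31 to 0.23.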

How the data were processed

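The authors deposited 1 linear intensity per probe set and array; the probe summary and array scaling behind it are steps not given in the sources used here. Groups came from the array titles. The genes and lists were chosen with earlier results of these data known. Gene symbols came from the platform annotation: of 45037 probe sets that are not controls, 34945 had 1 symbol, 932 several and 9160 none. From the intensities, log2(intensity + 46.9) was computed (the 25th percentile of all values as pseudocount) and quantile-normalised. Probe sets from the 40th percentile of the mean upward were kept (27022), and the one of highest mean stood for its gene. limma (lmFit, eBayes with an intensity trend; limma 3.58.1 in R 4.3.3) was fitted to all 13565 genes, two-sided, with Benjamini-Hochberg adjustment over all of them, with and without the array pair as a block. Intervals are 95% intervals of these fits.

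Pairs came from 18 spike-in probe sets, which differed on average by 0.0449 (array pair 1) and 0.0847 (array pair 2) on the log2 scale, and by at least 0.855 across pairs. The unnumbered repeat tag in 2 titles gives the same pairs, while replicate numbers pair nothing. The block leaves differences as they are and changes their standard errors (median 0.183 without it, 0.0719 with it). No 2 arrays shared more than 1 identical value. The small number of arrays limits precision. The fits were tested on simulated data. The simulated noise was scaled from the standard errors of the blocked fit, so it cannot show whether these hold for the arrays.

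Given with every array's value were the called members, the others of largest absolute difference up to 16, and the leading gene of each role. Named from other lists, mostly by their difference alone, were up to 4 called genes by size and Cdkn2b, Cdkn1a, Cdkn1b, Myc, Ccnd1, Dnmt1 and Mki67 in any case. Pcna, Ccne1, members given by their difference alone, and genes completing a small count were named outside this rule. Alternatives covered the pseudocount, a floor, normalisation, filter, probe set choice, trend, prior, block and leaving out arrays.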

Additional observations from a re-analysis of the deposited data

How the results depend on the processing

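The count of replication genes past an adjusted p of 0.05 was 0 without a block under each alternative, including without each array in turn (0 to 0). With the array pair as replicate block it was 5, and 26 genes of the 6 other pathway lists passed (6 higher, 20 lower) against 0 without it. The called share of these lists ran from 0% to 32.3% with the block, where 18.5% of all genes passed, 7.89% higher and 10.6% lower. The blocked count was 8 with median centring, 0 with the prior degrees of freedom taken from the unblocked fit, and between 4 and 7 under the other alternatives. The share of all genes called moved as well. It was 19.3% with median centring and 13.0% with no filter. With the filter at the 60th percentile it was 23.2% (4 of 48 replication genes). Without probe sets of the suffixes _s, _x and _a it was 18.9% (7 of 44). With the 2 pseudocounts, the floor, no normalisation or no filter, the same 5 genes passed. The causes were not tested. The median difference of the replication genes stayed below 0 in all alternatives: it was -0.10 within array pair 1 and from -0.12 to -0.016 when 1 array was left out. Orc2 turned to -0.0051 and Ticrr to -0.029 on another probe set, and Pold4 ranged from -0.53 to 0.019 when 1 array was left out. Signal near background limits dim genes such as Pola1, Ccne2 and Tyms.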

Other observations

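Some replication genes had probe sets that differed from each other by more than the groups did. For Ccne1 the probe set used was at 9.90 and 9.91 in the arrays of array pair 1 and at 8.79 and 8.94 in those of array pair 2, while its other probe set was at 8.22, 8.16, 8.43 and 8.37 in the same order. For Mcm3 the 5 kept probe sets had pair differences (pair 2 minus pair 1) from -0.46 to 0.55, but group differences from -0.07 to 0.04. For Pold1 the pair differences were -0.60 and 0.46 and the group differences -0.08 and -0.10. For Chaf1b they were -0.83 and 0.11, with group differences of 0.10 and -0.11. The opposite case was Orc4, whose 3 kept probe sets had pair differences of one sign, from 0.24 to 0.46, and group differences from -0.23 to 0.07.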
